A study of Oryza sativa with 6 samples.

Results

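The genes described here are rice gibberellin 20-oxidases. Members were chosen by name, as probe sets whose single gene carries a GA20ox, GA3ox or GA2ox name with a number in the platform annotation or the gene table. Among 17905 genes read by 22436 single-gene probe sets, 2 genes met this rule, SD1 (also named GA20OX2, gene ID 4325003) and GA20OX3 (gene ID 4342505), each with 1 probe set. Both are 20-oxidases. No probe set carried a GA3ox or GA2ox name, so the later synthesis step and the breakdown enzymes of that class were not analysed here.

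Gibberellins are growth hormones that promote stem and leaf elongation. They are built from a diterpene by copalyl diphosphate synthase, kaurene synthase, kaurene oxidase and kaurenoic acid oxidase, after which 20-oxidases carry out successive oxidations and 3-oxidases give the active forms, while 2-oxidases inactivate them. Genes for 20-oxidases are known to be lowered by active gibberellin as part of a feedback loop. Loss of SD1 function gave the semi-dwarf rice varieties of the Green Revolution.

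RNA came from shoots of 25-day-old seedlings of the dst mutant line and of the wild-type japonica cultivar Zhonghua11, with 3 biological replicates of each, each read on its own Affymetrix rice array. The growth chamber was lit for 11 h a day at 26 °C and dark for the other 13 h at 22 °C, and no stress treatment is named. DST encodes a zinc finger transcription factor known from drought and salt responses. The labels give neither the allele nor the cultivar in which the mutant line was made. The study set the mutant transcriptome against the wild-type one, and the number of arrays limits its precision. In whole shoots, fewer cells of a type and less RNA per cell cannot be told apart.

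Each array had a median signal for rice probe sets of 117.6 to 140.9, in the arbitrary linear units of the deposited values. Leaf genes matched the shoot label, with the Rubisco activase gene RCA at a mean of 36722 in dst and 36872 in the wild type. On dst replicate 3 the RCA signal was the highest of the array, and whether such signals were saturated was not tested. Of 9 root marker genes 6 were above the filter. The brightest was AMT1;1, at 5971 in dst and 7254 in the wild type. The silicon channel gene LSI1 was at 1547 in dst and 1398 in the wild type, while the silicon exporter gene LSI2 was at 13.8 in dst and 12.2 in the wild type. The highest signal was lower on the third arrays, at 32620 in dst and 31461 in the wild type, than on the other 4, at 41451 to 43119. The log2 ratio of 3' to 5' GAPDH control signal was 1.01 to 1.36 in dst and 0.35 to 0.62 in the wild type, without overlap, whereas the actin ratio overlapped, at 1.81 to 2.01 in dst and 1.83 to 2.05 in the wild type. The part of these ratios in the results below was not tested.

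Both 20-oxidase genes had a higher mean signal in dst shoots than in wild-type shoots, at ratios of 1.40 for SD1 and 1.26 for GA20OX3, and neither difference passed the test. SD1 encodes a 20-oxidase that acts in stem elongation. Its signal was 892.7, 801.5 and 1050.7 on dst arrays 1, 2 and 3, against 492.5, 773.2 and 713.0 on wild-type arrays 1, 2 and 3. All dst values lay above all wild-type values, with wild-type replicate 1 far below the other wild-type arrays and only a narrow gap between dst replicate 2 and wild-type replicate 2. The mean was 915.0 ± 126 in dst and 659.6 ± 148 in the wild type (SD, n = 3 each). On the log2 scale the difference of dst minus wild type was 0.49 ± 0.19 (SE), a ratio of 1.40 with a 95% interval of 1.04 to 1.89.

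This difference did not pass the threshold. The unadjusted p was 0.0301 and the adjusted p 0.398 in limma, with Benjamini-Hochberg adjustment over 34316 tested probe sets and a threshold of 0.05. An unadjusted p under 0.05 was found for 10.5% of the tested probe sets, and 2589 of them had a smaller p than SD1. Complete separation with dst on top was found for 9.31% of the tested probe sets. An exact two-sided permutation test of SD1 alone gave p = 0.1, the smallest value that 3 against 3 arrays allow.

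GA20OX3 encodes another enzyme of the same step. Its signal was 399.3, 521.6 and 552.0 on dst arrays 1, 2 and 3, against 357.8, 436.1 and 368.0 on wild-type arrays 1, 2 and 3. The groups overlapped, since dst replicate 1 lay below wild-type replicate 2, although each dst value was above the wild-type mean. The mean was 491.0 ± 80.8 in dst and 387.3 ± 42.6 in the wild type (SD, n = 3 each). The log2 difference was 0.33 ± 0.18 (SE), a ratio of 1.26 with a 95% interval of 0.948 to 1.68, and the adjusted p was 0.587 in limma. The exact two-sided permutation test gave p = 0.2.

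**Figure D1:**
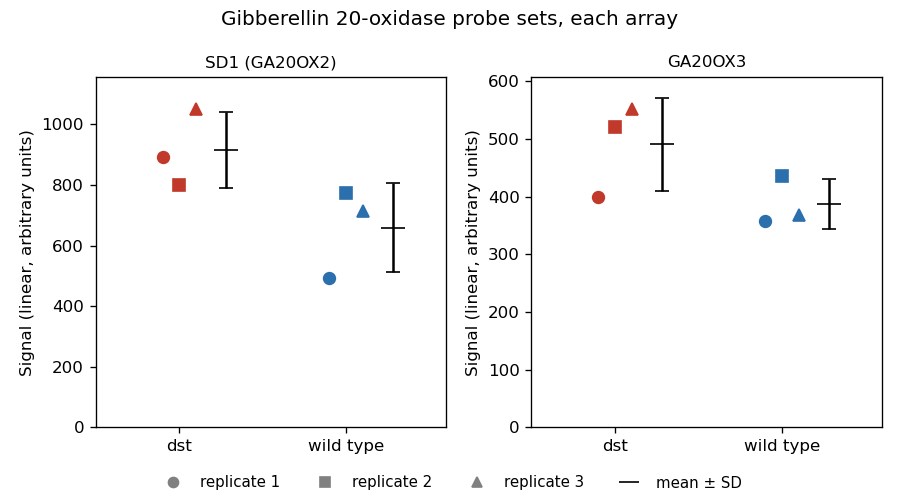
Signal of the SD1 (GA20OX2) and GA20OX3 probe sets on each array, in linear arbitrary units with axes from 0. Symbols mark replicate numbers and bars the mean ± SD of 3 arrays, and the 3 dst arrays of SD1, at 801.5 to 1050.7, lie above the 3 wild-type arrays, while those of GA20OX3 overlap.

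Neither of the 2 genes was called in limma, where 0.924% of all tested probe sets were called, 0.393% (135) higher and 0.53% (182) lower in dst. At an unadjusted p under 0.05 the count was 1 of 2, beside 10.5% of all tested probe sets. Both differences were upward and lay in the upper part of the distribution, since 9.16% of the tested probe sets had a higher log2 difference than SD1 and 15.8% a higher one than GA20OX3, with a median of 0.02 over all of them. The spread within groups was ordinary. The residual SD on the log2 scale was 0.28 for SD1 and 0.21 for GA20OX3, against a median of 0.27 over all tested probe sets.

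At these spreads only larger differences could be called. The weakest call on the arrays had a moderated t of 5.24 in absolute size, which for the standard error of SD1 corresponds to a ratio of 2.01 and for that of GA20OX3 to 1.94. A 2-fold change in either direction lies outside the 95% interval of either gene, while smaller differences, such as the measured 1.40 and 1.26, were not detectable with 3 arrays a group.

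The 2 genes were also set against each other within each array. The log2 difference of dst minus wild type was larger for SD1 by 0.16 ± 0.22 (SE), and the exact two-sided permutation test of this contrast gave p = 0.5. A difference between the 2 genes in their response was therefore not detectable. Their largest values lay on the same array, dst replicate 3, and their lowest on wild-type replicate 1.

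Within equal replicate numbers, SD1 measured 0.86, 0.05 and 0.56 for dst minus wild type on the log2 scale in replicates 1, 2 and 3. GA20OX3 measured 0.16, 0.26 and 0.58. Replicate 1 thus gave the largest value for SD1 and the smallest for GA20OX3. The labels do not say that equal numbers are pairs, so these are descriptions.

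The nearest genes on the chromosome were examined next. Of the 5 nearest tested genes on each side, none of 10 passed around SD1, with log2 differences of -0.22 to 0.74 and a lowest adjusted p of 0.318 in limma. Around GA20OX3 none of 10 passed, with -0.32 to 0.29 and a lowest adjusted p of 0.415.

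Among 2245 genes with a name, the pattern most like that of SD1 over the 6 arrays was that of ArsM1, with a Pearson correlation of 0.991 in log2 signal. CIPK6, a kinase gene of the family that binds calcineurin B-like calcium sensors, followed with 0.962. For GA20OX3, added to the naming rule after its values were seen, the closest were CSTLP2 with 0.980 and LST8 with 0.971. The points share their arrays, and these names were picked as the highest of 2245 correlations, so they are a description. ArsM1 averaged 1374 ± 178 in dst and 1010 ± 210 in the wild type (SD, n = 3 each), and its adjusted p in limma was 0.389.

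The other genes of the pathway were taken from a list of names. It matched 20 genes by names from gibberellin synthesis, inactivation, signalling and control of the oxidase genes, of which 17 were above the filter. Of the 20, OsKO4 and OsKO5 also carry the names OsKOL4 and OsKOL5, and their part in gibberellin synthesis was not tested. None of the 17 passed in limma, where 0.924% of all tested probe sets passed. An unadjusted p under 0.05 was found for 4 of the 17, beside 10.5% of all tested probe sets. A higher mean in dst was measured in 10 of 17, with a median log2 difference of 0.12, beside 0.02 over all tested probe sets.

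**Figure D2:**
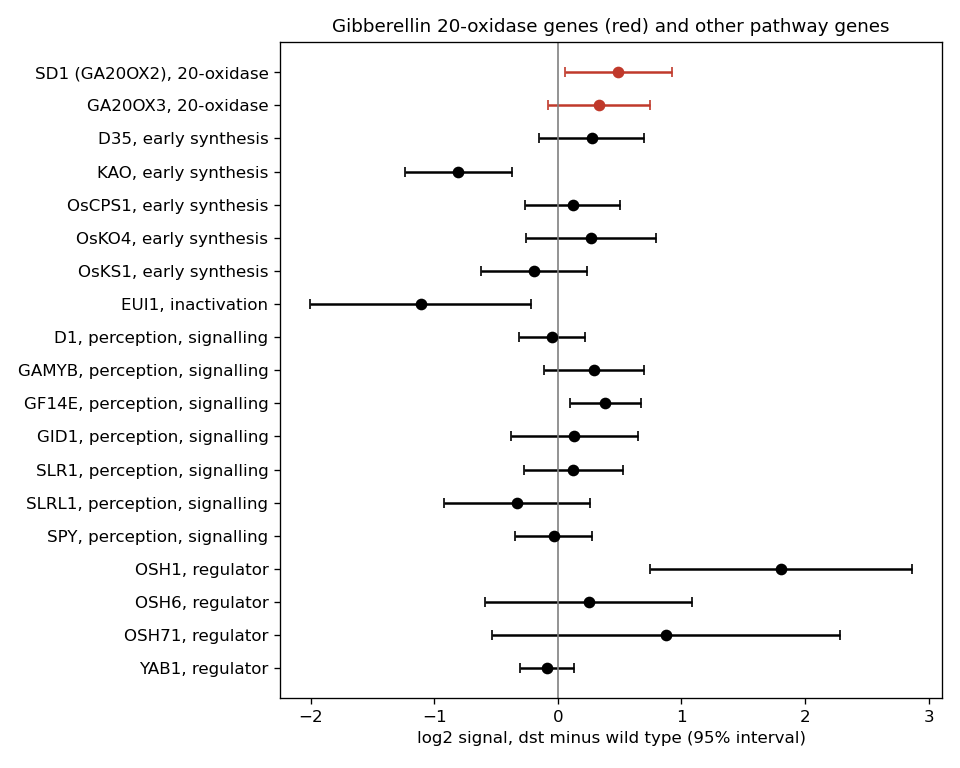
Log2 difference of dst minus wild type with its 95% interval for the 20-oxidase genes, in red, and the 17 other tested pathway genes, in black and grouped by role. The intervals of SD1, KAO, EUI1, GF14E and OSH1 exclude 0 before adjustment, and none of the genes passed after it.

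Upstream of the 20-oxidases, KAO, which encodes kaurenoic acid oxidase and makes the first gibberellin, had the smallest p among 5 tested genes of early synthesis. Its signal was 504.8, 310.8 and 375.1 on the dst arrays, against 713.7, 692.5 and 637.9 on the wild-type arrays. Every dst value lay below every wild-type value, as in 7.32% of the tested probe sets. The log2 difference was -0.81 ± 0.19 (SE) and the adjusted p in limma 0.120, so KAO leaned opposite to both 20-oxidase genes without passing. Over 14 alternative settings KAO stayed lower in dst without passing, at an adjusted p of 0.0816 to 0.348 in limma. OsCPS1, for copalyl diphosphate synthase, measured 0.12 ± 0.17 and OsKS1, for kaurene synthase, -0.19 ± 0.19. The kaurene oxidase gene D35 measured 0.27 ± 0.19 in its brighter probe set and -0.17 ± 0.27 in the other. The probe sets of D35, like that of OsKS1, may also read similar transcripts.

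EUI1, the only gene found for inactivation, encodes a cytochrome P450 that epoxidises gibberellins and limits elongation of the uppermost internode. Its signal was 103.9, 93.0 and 256.2 on the dst arrays, against 214.5, 337.4 and 344.0 on the wild-type arrays. The groups overlapped, with dst replicate 3 above wild-type replicate 1. The log2 difference was -1.11 ± 0.40 (SE) and the adjusted p in limma 0.344.

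None of 7 tested genes of perception and signalling passed. The receptor gene GID1 had 1866, 1783 and 2912 on the dst arrays, against 1827, 1546 and 2610 on the wild-type arrays, and the third array was the highest in both groups. SLR1, the DELLA repressor of gibberellin responses, averaged 900.7 ± 149 in dst and 828.4 ± 147 in the wild type (SD, n = 3 each), a log2 difference of 0.12 ± 0.18 (SE). GAMYB, a transcription factor gene known from gibberellin responses in the aleurone and anther, measured 0.29 ± 0.18. The smallest p of this role was that of GF14E, a 14-3-3 gene at a locus that also carries the name GID2, at 0.38 ± 0.13 with an adjusted p of 0.291. Which of the 2 names its probe set reads was not tested.

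Among 4 tested regulators of oxidase genes, OSH1 had the smallest p. It encodes a class I KNOX homeobox protein of the shoot meristem, and in tobacco a protein of this class is known to repress a 20-oxidase gene. The OSH1 signal was 658.4, 902.2 and 689.1 on the dst arrays, against 495.7, 193.7 and 99.9 on the wild-type arrays. Every dst value lay above every wild-type value, as in 9.31% of the tested probe sets. The wild-type arrays were widely spread, with replicate 1 the highest. The log2 difference was 1.81 ± 0.47 (SE) and the adjusted p in limma 0.162. A second probe set, which may also read similar transcripts, gave 1.66 ± 0.45. Without wild-type replicate 1 the log2 difference was 2.42 and the adjusted p 0.00945, and with array weights they were 1.89 and 0.0432. Over all 14 alternatives the adjusted p of OSH1 ran between 0.00945 and 0.421. OSH1 and both 20-oxidase genes had a higher mean in dst without passing as reported, and a link between them was not tested.

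OSH1 is also a marker of the shoot apex, and the other markers of apex and young stem were examined beside it. Of 5 tested markers, 5 had a higher mean in dst and none passed in limma. Their median log2 difference was 0.36, beside 0.02 over all tested probe sets. At an unadjusted p under 0.05 the count was 1, OSH1 itself, beside 10.5% of all tested probe sets. The summed signal of the 6 genes found was 1948 to 2377 in dst and 1220 to 1805 in the wild type, without overlap. Without OSH1 the sum, with FON1 as its largest part, overlapped, at 1258 to 1528 in dst and 1036 to 1309 in the wild type. WOX4 was below the filter, at 19.6 in dst and 34.1 in the wild type. The summed signal of 13 leaf genes overlapped, at 141044 to 164706 in dst and 138408 to 169817 in the wild type. That of the 9 root genes, most of it from AMT1;1, also overlapped, at 7090 to 9420 in dst and 7949 to 10434 in the wild type. The part of the tissue makeup in the 20-oxidase values was not tested.

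**Figure D3:**
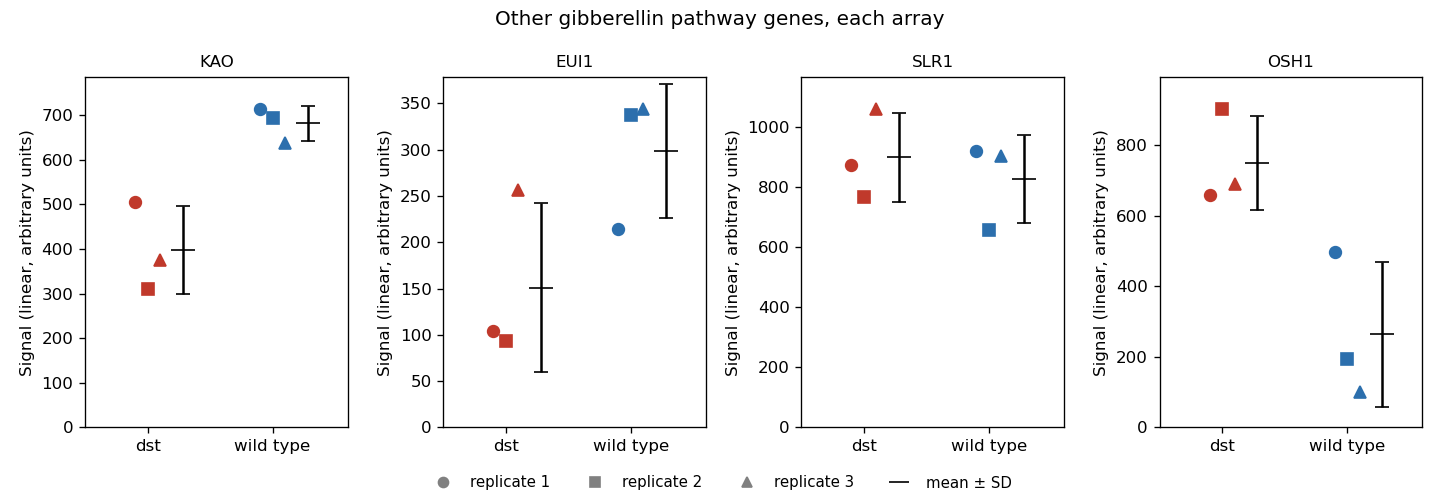
Signal of KAO, EUI1, SLR1 and OSH1 on each array, in linear arbitrary units with axes from 0, with replicate numbers as symbols and bars for the mean ± SD of 3 arrays. KAO lies lower and OSH1 higher on every dst array than on any wild-type array, while EUI1 and SLR1 overlap.

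Diterpene synthases of phytoalexin routes, which share the names of the early gibberellin enzymes, were counted apart. Of 6 genes found, 2 were above the filter and neither passed in limma. An unadjusted p under 0.05 was found for 1 of 2, beside 10.5% of all tested probe sets. OsKSL5 had 203.9, 204.3 and 170.9 on the dst arrays, against 162.4, 103.4 and 83.6 on the wild-type arrays, a log2 difference of 0.78 ± 0.32 (SE) and an adjusted p of 0.433.

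**Figure D4:**
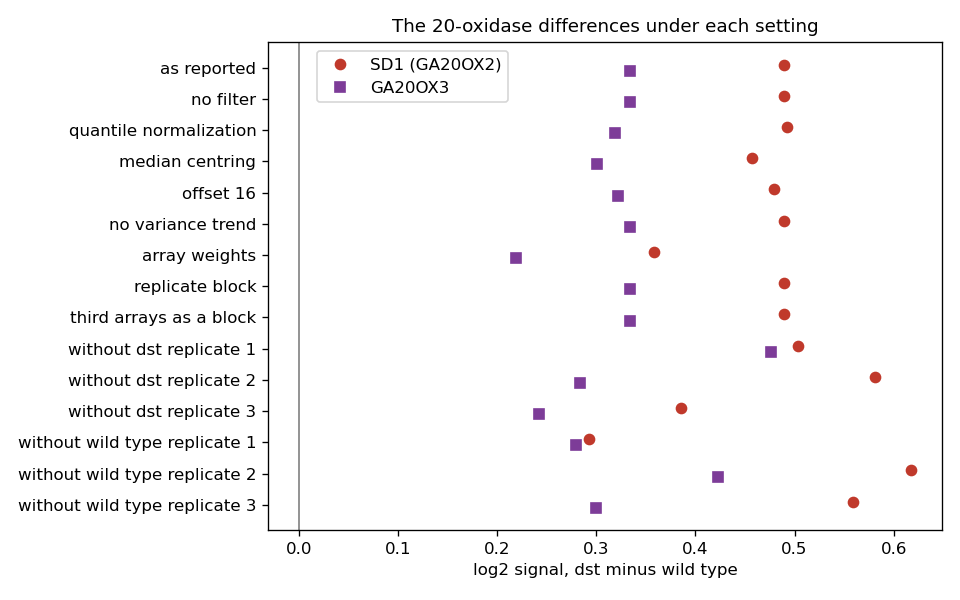
Log2 difference of dst minus wild type for SD1 (circles) and GA20OX3 (squares) as reported and under each of 14 alternative settings. All points lie above 0, SD1 between 0.29 and 0.62 and GA20OX3 between 0.22 and 0.48.

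The settings plotted for the 2 genes changed the size of their differences and not the outcome. SD1 stayed at an adjusted p of 0.237 to 0.675 and GA20OX3 at 0.420 to 0.798 in limma. The value of SD1 depended most on wild-type replicate 1, without which it was 0.29.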

How the data were processed

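The deposited values are 1 linear signal intensity per probe set and array. The labels' protocols give Trizol extraction and standard Affymetrix biotin labelling, while software and scaling are not stated there. With 2% of the values trimmed at either end, every array averaged 500.0, so the authors appear to have scaled the arrays. Signals under 1 were set to 1, log2 was taken, and rice probe sets whose mean fell below the 40th percentile, equal to a signal of 70.5, were dropped. The test was limma 3.58.1 (R 4.3.3) with a mean-variance trend and Benjamini-Hochberg adjustment. Permutation tests used scipy 1.17.1. Every member is named. From the pathway list, the gene with the smallest p in each role was named, and the others printed were chosen for their known role after their values were seen. The brightest probe set stood for each gene. Names came from the platform annotation and a RefSeq gene table of assembly ASM3414082v1, used for names and gene order only. One gene that shares the synonym PT2 was left out of the root markers. The members and lists were chosen with earlier results of these data known. The fit was tested on simulated data with independent normal noise, which lack any variation shared within an array. The outcome of that test is not given here. DST itself was not analysed here.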

Additional observations from a re-analysis of the deposited data

How the results depend on the processing

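Alternatives covered the filter, normalization, an offset of 16, the variance trend, array weights, the replicate block, a block for the third arrays and each array left out. SD1 and GA20OX3 kept a positive difference and did not pass in any of the 14, and the count of called 20-oxidase probe sets stayed at 0. An unadjusted p under 0.05 was found for SD1 in 8 and for GA20OX3 in 1 of the 14. With the replicate block SD1 was 0.49 with an adjusted p of 0.260 and GA20OX3 0.33 with 0.420. The correlation of deviations for equal replicate numbers 1, 2 and 3 was 0.05, 0.05 and 0.20, against -0.11 to 0.06 for unequal numbers. The value of 0.20 was that of the third arrays. Whether equal numbers are pairs cannot be told from these values. The count of called probe sets was 317, and it was 463 with the replicate block, 80 without the variance trend, 532 with array weights, 606 with a block for the third arrays, and 118 to 280 with each array left out (138 without dst replicate 1, 179 without dst replicate 2, 118 without wild-type replicate 2 and 177 without wild-type replicate 3). The split of higher and lower calls was 135 and 182 as reported, and 102 and 192 with median centring. It turned to more higher than lower calls without wild-type replicate 1 (139 and 126) and without wild-type replicate 2 (62 and 56). The count of called pathway genes was 0 as reported, 1 with array weights and 0 to 1 with each array left out, the gene being OSH1. The cause was not tested. No detection calls were used, so signal over background is unknown.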
